A study of Homo sapiens with 14 samples.

Results

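KDM6B and KDM6A encode JMJD3 and UTX, the histone demethylases that the short hairpins of this series were directed against. The rows were found by gene symbol in all 6 deposited tables, which gave 2 genes of 55075, ENSG00000132510 (KDM6B, chromosome 17) and ENSG00000147050 (KDM6A, chromosome X). RNA was sequenced from 14 samples of CUTLL1 and CEM, 2 human lines derived from T cell leukemia, which were grown in suspension and infected with retroviruses. The hairpin targeted JMJD3 in 3 CUTLL1 and 2 CEM samples (shJMJD3), UTX in 2 and 2 (shUTX), and Renilla luciferase, a gene that human cells lack, in 3 and 2 (shRenilla, the control). Every group therefore carried a retrovirus and a hairpin, and no uninfected cells were part of the comparison. The labels name 1 hairpin target per group but not the hairpin sequence, so effects of a hairpin on other genes cannot be told apart from effects of its target.

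JMJD3 and UTX belong to the JmjC family of iron- and 2-oxoglutarate-dependent dioxygenases. Both take methyl groups off histone H3 at lysine 27, undoing the mark that Polycomb repressive complex 2 (PRC2) writes and that accompanies gene silencing. UTX also sits in the complexes that hold the histone H3 lysine 4 methyltransferases KMT2C and KMT2D, and KDM6A is a known tumour suppressor gene of T cell leukemia, while JMJD3 has been described as a cofactor of NOTCH1-driven leukemia. KDM6B is an inducible gene that many stimuli raise, and KDM6A is expressed in most tissues.

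The authors deposited 1 count per gene, hairpin and line, which pools or stands for all samples of a group, so no mean or SD over samples can be given within a line. The counts of both genes were the same in both tables that hold a column, except in the CUTLL1 shRenilla column. That control had a larger column, paired with shJMJD3 and of 258014046 counts, and a smaller one, paired with shUTX and holding 144394369. In no gene did the smaller column exceed the larger, so the remainder of the larger minus the smaller was read as another part of that control, of 113619677 counts. The parts show the only spread within a group: KDM6A was at 43.0 CPM in the smaller column and 26.5 in the remainder, KDM6B at 21.5 and 15.3, and protein-coding genes at 81.8% and 60.0% of the counts. What sets the parts apart was not tested. Totals of the other columns lay between 70280185 and 174301733. CUTLL1 columns differed in RNA makeup, with protein-coding genes at 66.9% of the counts with shJMJD3, 79.0% with shUTX, 72.2% in the larger control and 81.8% in the smaller, against 93.0% to 94.1% in CEM. The T cell markers summed to between 1914 and 2630 CPM (each count scaled to its column's total) in all 7 columns. B cell markers summed to between 1.48 and 4.14 CPM in CUTLL1 and between 47.6 and 83.3 in CEM, where CD79A led them and MS4A1 was at 0 counts, and myeloid markers to at most 6.46 CPM.

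Every column had enough reads of both genes for a precise count. In CUTLL1, KDM6B had 1897 counts with shJMJD3, 2869 with shUTX, 4843 in the larger control column and 3107 in the smaller. These correspond to 10.9, 28.2, 18.8 and 21.5 CPM, so KDM6B was lowest with its own hairpin and highest with the UTX hairpin. In CEM it had 3670 counts with shJMJD3, 14045 with shUTX and 21500 with shRenilla, or 52.2, 198 and 206 CPM, and only the JMJD3 hairpin column stood well below the control. KDM6A in CUTLL1 had 5663 counts with shJMJD3, 1962 with shUTX, 9231 in the larger control and 6215 in the smaller, or 32.5, 19.3, 35.8 and 43.0 CPM. In CEM it had 6096 counts with shJMJD3, 3646 with shUTX and 14169 with shRenilla, or 86.7, 51.5 and 136 CPM. KDM6A was thus lowest with the UTX hairpin in both lines, and in CEM it was also below the control with the JMJD3 hairpin. In bulk RNA, less RNA per cell and fewer cells that express a gene give the same value.

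**Figure D1:**
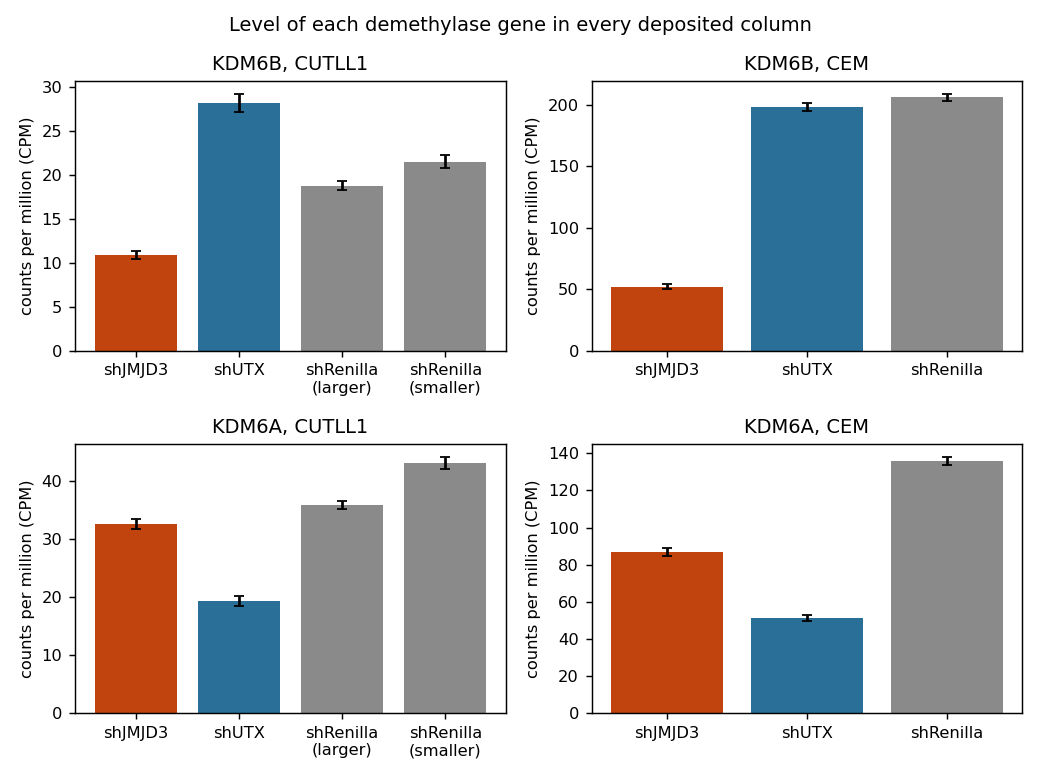
CPM of KDM6B (top) and KDM6A (bottom) in each deposited column of CUTLL1 (left) and CEM (right), with bars for shJMJD3, shUTX and shRenilla, the CUTLL1 control as its larger and smaller column, and error bars for exact Poisson 95% intervals that cover counting error only. In both lines KDM6B is lowest with shJMJD3 (10.9 and 52.2 CPM) and KDM6A with shUTX (19.3 and 51.5 CPM).

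The first comparison asks how far the JMJD3 hairpin lowered its target. Ratios are given on the TMM scale, edgeR's trimmed mean of M-values, which centres most genes near 0, with exact binomial 95% intervals for counting error only. In CUTLL1 the log2 ratio of KDM6B, shJMJD3 over the larger control column, was -0.63 (-0.71 to -0.56), so that 64.5% (61.1 to 68.0) of the control level was left. In CEM it was -1.67 (-1.72 to -1.62), with 31.4% (30.3 to 32.5) left. Scaled to column totals, 58.0% was left in CUTLL1 and 25.3% in CEM, because that scaling lowered the median of all genes by 0.15 and 0.31 on the log2 scale. The CUTLL1 log2 ratio exceeded the CEM one by 1.04 (0.95 to 1.13), a smaller drop in CUTLL1 that has no replicate check.

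KDM6B was among many genes that were lower with the JMJD3 hairpin. It was at least 1.5-fold lower in both lines, as were 7.11% of the 19772 genes considered in CUTLL1 and 24.0% of the 16998 in CEM, where a gene was considered at 50 counts or more in either column. In CUTLL1 1216 genes (6.15%) had a ratio at or below that of KDM6B, and in CEM 905 (5.32%). Among genes with 500 counts or more in either column these were 369 of 13572 (2.72%) and 315 of 12089 (2.61%). Only 107 of 15882 genes (0.674%) considered in both lines, KDM6B included, were at least as low as KDM6B in each line, and 74 of them were protein-coding. Across lines, edgeR's quasi-likelihood test gave KDM6B a log2 ratio of -1.15 (standard error 0.30), at a Benjamini-Hochberg adjusted p of 0.800. Its unadjusted p of 0.0118 was the 130th smallest of 24003 genes. This test called 0 genes (0.0%). Unadjusted, 936 had a p under 0.05, and DESeq2 called 110 (0.525%), KDM6B not among them at an adjusted p of 0.243. The lines are the only repeats and line is a term of the fit. Such p-values therefore rest on how far hairpin effects differed between 2 lines, over all 3 hairpins.

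The UTX hairpin left KDM6B near or above its control. In CUTLL1, with 28.2 CPM for shUTX against 21.5 for the smaller control column, the log2 ratio was 0.43 (0.36 to 0.50), and 1194 of 16886 genes (7.07%) were at least as high. In CEM, with 198 CPM against 206, it was -0.02 (-0.05 to 0.01). The interval in CUTLL1 excludes 0 and that in CEM does not. On column totals the CEM ratio was -0.06 (-0.09 to -0.03), so whether its interval holds 0 depends on the scaling. The edgeR ratio across lines was 0.18 (standard error 0.30), at an adjusted p of 1.

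The same question was asked of the UTX hairpin. In CUTLL1 the log2 ratio of KDM6A, shUTX over the smaller control column, was -1.12 (-1.19 to -1.04), with 46.1% (43.8 to 48.5) of the control left. In CEM it was -1.37 (-1.42 to -1.31), with 38.8% (37.4 to 40.2) left. The CUTLL1 log2 ratio exceeded the CEM one by 0.25 (0.16 to 0.34). On column totals 44.8% was left in CUTLL1 and 37.9% in CEM. The CUTLL1 value depends on the control part, since 52.7% was left on the TMM scale against the larger control column and 50.8% against the remainder. On column totals it was 53.9% against the larger column and 72.6% against the remainder.

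KDM6A was among the lowest genes when set against the smaller control column. It was at least 1.5-fold lower in both lines, where 2.25% of 16886 genes in CUTLL1 and 4.06% of 16791 in CEM were. In CUTLL1 28 genes (0.166%) were at or below its ratio, and among the 11811 genes with 500 counts or more KDM6A was the lowest. In CEM 79 genes (0.470%) were at or below it, and 9 of 11929 with 500 counts or more. Of 15153 genes considered in both lines, the only other gene as low as KDM6A in each was TNFRSF10A, which encodes a death receptor for the ligand TRAIL and was noted after its values were seen. TNFRSF10A had 4 counts with shUTX against 59 in the smaller control column of CUTLL1 and 37 against 166 in CEM, so its ratios of -2.86 (-5.26 to -1.90) and -1.53 (-2.13 to -1.05) are far less precise. Across lines, with the smaller control column, edgeR gave KDM6A a log2 ratio of -1.25 (standard error 0.17). Its unadjusted p of 0.00111 was the smallest of 23112 genes. The adjusted p was 1, with 0 genes called (0.0%), and 39 genes had an unadjusted p under 0.05. That rank depends on the control column. With the larger one, edgeR gave KDM6A -1.13 at an unadjusted p of 0.00254 and an adjusted p of 0.560. There 811 genes had an unadjusted p under 0.05, and the smallest adjusted p, of another gene, was 0.0681. With the smaller control column, the only one it was run with here, DESeq2 called 2 of 39896 genes (0.00501%). KDM6A was one of them, at a log2 ratio of -1.23 (standard error 0.23) and a DESeq2 adjusted p of 0.00142. The other was RP11-887P2.3, at a log2 ratio of -30.0 (standard error 4.84) and a smaller DESeq2 adjusted p of 2.32e-05.

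With the JMJD3 hairpin KDM6A differed between lines. In CUTLL1 its log2 ratio to the larger control column was 0.01 (-0.03 to 0.06), and on column totals -0.14 (-0.19 to -0.09), so its side of 0 depends on the scaling. In CEM it was -0.34 (-0.38 to -0.29), with 79.1% of the control left on the TMM scale and 63.8% on column totals. A ratio this low or lower was found in 5716 of the 16998 genes (33.6%) in CEM. The edgeR value across lines was -0.17 (standard error 0.20), at an adjusted p of 0.859.

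**Figure D2:**
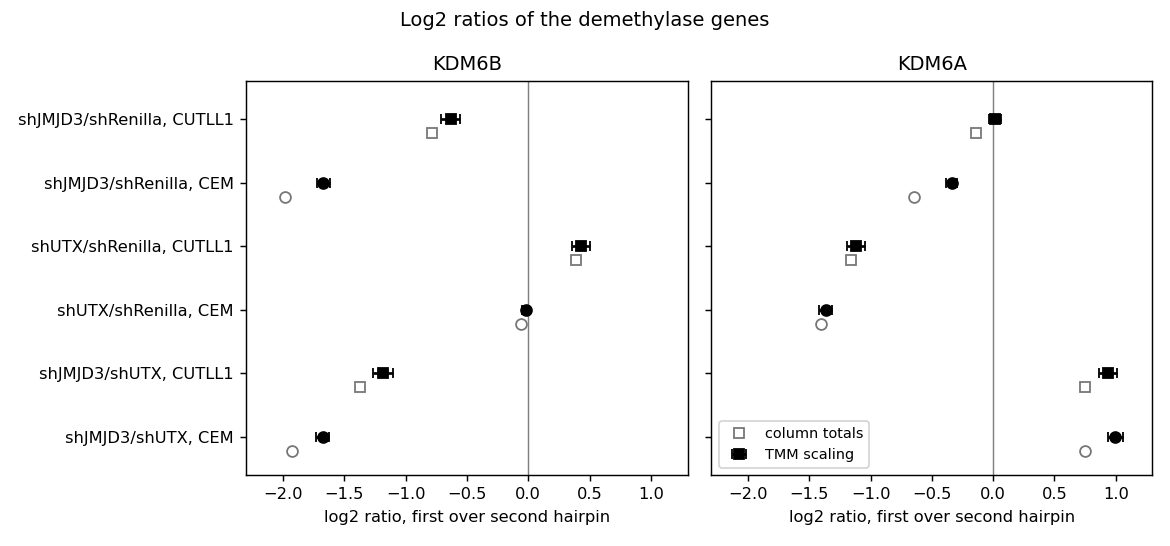
Log2 ratios of KDM6B (left) and KDM6A (right) for each hairpin pair and line, with filled symbols for TMM scaling and exact binomial 95% intervals, open symbols for column totals, squares for CUTLL1 and circles for CEM. On the TMM scale KDM6B is at -0.63 and -1.67 with shJMJD3 over shRenilla, and KDM6A at -1.12 and -1.37 with shUTX over shRenilla. Against shRenilla the gene not targeted lies between -0.34 and 0.43 on that scale and between -0.65 and 0.39 on column totals.

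**Figure D3:**
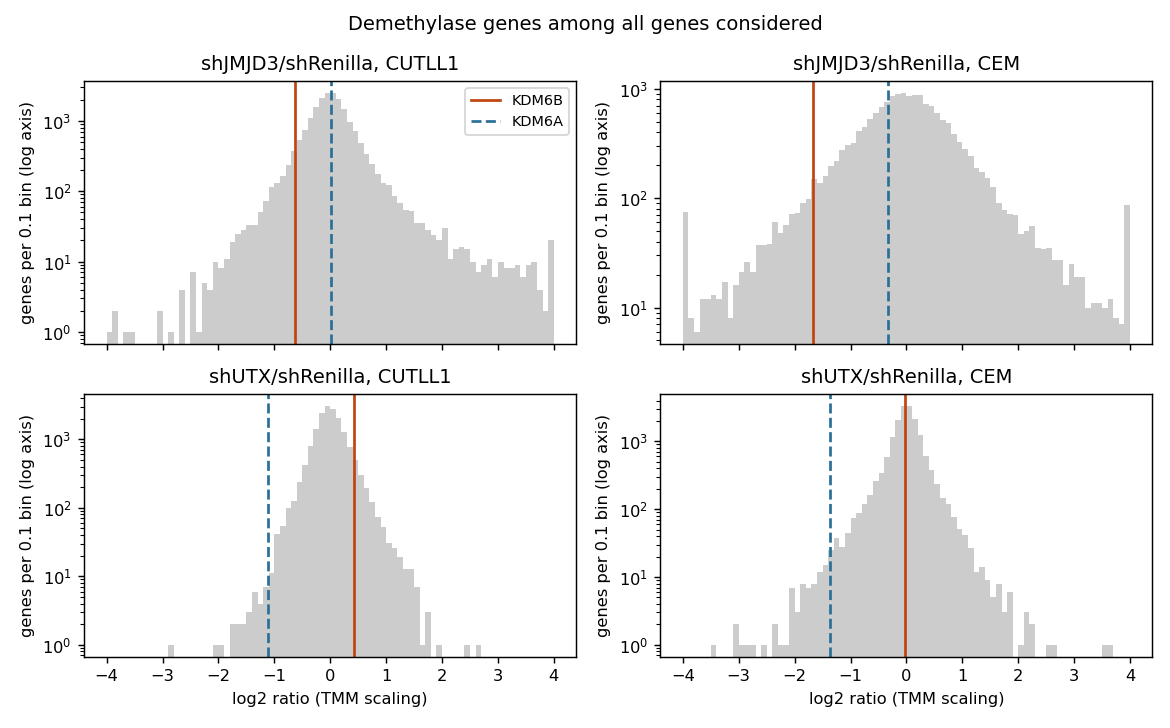
Number of genes (log axis) by log2 ratio on the TMM scale for shJMJD3 over shRenilla (top) and shUTX over shRenilla (bottom) in CUTLL1 (left) and CEM (right), over genes with 50 counts or more in either column and with values beyond the axis placed in its end bins. The solid line marks KDM6B and the dashed line KDM6A. With shUTX, KDM6A lies in the lowest 0.166% (against the smaller CUTLL1 control column) and 0.470% of genes. With shJMJD3, KDM6B lies in the lowest 6.15% (against the larger CUTLL1 control column) and 5.32%.

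The direct comparison of both knockdowns does not use a control column for its levels. KDM6B was at 10.9 CPM with shJMJD3 against 28.2 with shUTX in CUTLL1, a log2 ratio of -1.19 (-1.27 to -1.10). In CEM it was at 52.2 against 198 CPM, a log2 ratio of -1.68 (-1.73 to -1.63). KDM6A was at 32.5 CPM with shJMJD3 against 19.3 with shUTX in CUTLL1, a log2 ratio of 0.94 (0.86 to 1.01), and at 86.7 against 51.5 in CEM, a log2 ratio of 1.00 (0.94 to 1.06). The KDM6A ratios of the lines differed by -0.06 (-0.15 to 0.04), CUTLL1 minus CEM, and those of KDM6B by 0.49 (0.39 to 0.59). At least 1.5-fold lower with shJMJD3 than with shUTX were 10.2% of genes in CUTLL1 and 23.4% in CEM, and at least 1.5-fold higher were 17.3% and 22.3%. The CUTLL1 columns differed in RNA makeup, with protein-coding genes at 66.9% of the counts with shJMJD3 and 79.0% with shUTX. The part of that makeup in these shares was not tested. The median of all genes on the TMM scale was -0.12 in CUTLL1 and -0.01 in CEM. Across lines, edgeR gave -1.41 (standard error 0.30) for KDM6B and 0.97 (standard error 0.20) for KDM6A, both at an adjusted p of 0.506. It called 0 genes (0.0%), and 1945 had an unadjusted p under 0.05. DESeq2 called both, at adjusted p of 0.0347 and 0.0183, among 287 genes (1.37%).

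The balance of the genes within a column needs no scaling between libraries. In CUTLL1 KDM6B made up 25.1% (24.1 to 26.1, exact Clopper-Pearson 95% interval) of the reads of both genes with shJMJD3, 59.4% (58.0 to 60.8) with shUTX, 34.4% (33.6 to 35.2) in the larger control column and 33.3% (32.4 to 34.3) in the smaller. In CEM it made up 37.6% (36.6 to 38.5) with shJMJD3, 79.4% (78.8 to 80.0) with shUTX and 60.3% (59.8 to 60.8) with shRenilla. KDM6A was the more abundant in reads in control CUTLL1 and KDM6B in control CEM, and the hairpin against the more abundant gene turned that order round in each line. The log2 ratio of KDM6B to KDM6A reads shifted by -0.65 (-0.74 to -0.56) with shJMJD3 in CUTLL1 and by -1.33 (-1.40 to -1.27) in CEM. With shUTX it shifted by 1.55 (1.44 to 1.65) in CUTLL1 and by 1.34 (1.28 to 1.40) in CEM. Together both genes took 43.4 CPM with shJMJD3, 47.5 with shUTX, 54.5 in the larger control and 64.6 in the smaller control of CUTLL1, and 139, 250 and 342 CPM with shJMJD3, shUTX and shRenilla in CEM.

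**Figure D4:**
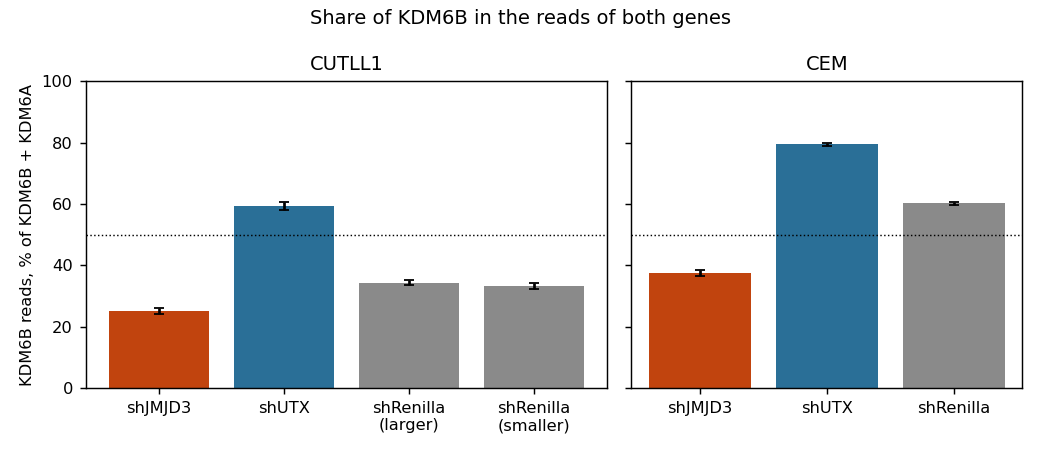
Reads of KDM6B as a percentage of the reads of KDM6B and KDM6A together in each column of CUTLL1 (left) and CEM (right), with exact binomial 95% intervals and a dotted line at 50%. The share is lowest with shJMJD3 (25.1% and 37.6%) and highest with shUTX (59.4% and 79.4%), with the control columns between them.

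Both genes were lower in CUTLL1 than in CEM, whichever hairpin was used. KDM6B was at 18.8 CPM in the larger CUTLL1 control column against 206 in CEM, a log2 ratio of -3.07 (-3.11 to -3.02) on the TMM scale. With shJMJD3 that ratio was -2.03 (-2.11 to -1.95) and with shUTX -2.52 (-2.58 to -2.46), so the gap between the lines was smaller in both knockdowns. KDM6A was at 35.8 CPM against 136, a log2 ratio of -1.53, with -1.18 for shJMJD3 and -1.12 for shUTX. Over the 3 hairpins edgeR's quasi-likelihood test called both genes, KDM6B at a log2 ratio of -2.54 (standard error 0.25, adjusted p = 0.00395) and KDM6A at -1.28 (standard error 0.16, adjusted p = 0.00732), lower in 3 of 3 hairpins each. So many genes differed between the lines that 36.8% of 24003 passed this test and 41.3% passed with DESeq2. Without the shRenilla columns KDM6A no longer passed, at -1.09 with an adjusted p of 0.0821, while KDM6B was at -2.21 with an adjusted p of 0.0311. The lines also differ in RNA makeup as given above, and its part in these differences was not tested.

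Levels of the genes can be set against each other per length of their exons, 7258 bases for KDM6B and 7139 for KDM6A in GENCODE release 29, although the authors' gene models may differ. KDM6B stood at 2.59 CPM per kilobase in the larger CUTLL1 control column, above 49.9% of the protein-coding genes with a count there, and at 28.4 in CEM shRenilla, above 90.3%. KDM6A stood at 5.01 CPM per kilobase in the larger CUTLL1 control column, above 61.4%, and at 19.0 in CEM shRenilla, above 83.1%. KDM6B was therefore at 0.516 times the per-length level of KDM6A in control CUTLL1 and at 1.49 times in control CEM. With shJMJD3 KDM6B still ranked above 42.8% of detected protein-coding genes in CUTLL1 and 62.3% in CEM. With shUTX KDM6A still ranked above 47.5% in CUTLL1 and 59.0% in CEM.

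The authors' own test scored both genes in every table. In the authors' deposited table for shJMJD3 over shRenilla, KDM6B had a normalized log2 ratio of -0.79 with a z-score of -21.4 in CUTLL1 and of -1.98 with a z-score of -92.5 in CEM. For shUTX over shRenilla, the authors' deposited table gave KDM6A a log2 ratio of -1.16 with a z-score of -33.8 in CUTLL1 and of -1.40 with a z-score of -58.8 in CEM. By absolute z-score in the authors' deposited tables, KDM6B with shJMJD3 had rank 1832 of 31781 genes in CUTLL1 and 213 of 26922 in CEM, and KDM6A with shUTX had rank 151 of 28529 in CUTLL1 and 19 of 26881 in CEM. The authors' deposited tables marked both genes at p under 0.001 in all 6 comparisons, including KDM6B with shUTX in CEM at a log2 ratio of -0.06. In CUTLL1 they marked 23.2% of all genes for shJMJD3 over shRenilla, 14.2% for shUTX over shRenilla and 28.0% for shJMJD3 over shUTX, and in CEM 26.6%, 12.6% and 24.8%. That test compares the reads of these libraries, not the conditions.

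The neighbouring protein-coding genes were examined because reads of adjoining genes could be assigned to either. In GENCODE release 29 no gene overlaps KDM6B or KDM6A. TMEM88, a membrane protein gene of the Wnt pathway, follows KDM6B on the same strand. It had 54 counts with shJMJD3 against 79 in the larger control column of CUTLL1, a log2 ratio of 0.16, and 21 against 125 in CEM, a log2 ratio of -1.65, close to the -1.67 of KDM6B. The next gene, LSMD1 (NAA38, a subunit of an N-terminal acetyltransferase), was at -0.09 in CUTLL1 and 0.78 in CEM. EFNB3 and DNAH2, on the other side, had at most 77 and 45 counts in any column. Beside KDM6A, FUNDC1, a mitophagy receptor, was at -0.08 in CUTLL1 and -0.11 in CEM with shUTX, and ZNF673 (KRBOX4) at 0.16 and -0.23. DUSP21 and CXorf36 had at most 2 counts in any column. With shUTX the drop of KDM6A was thus not shared by its measured neighbours.

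Genes that act with or beside the targeted enzymes were read as 3 lists: 9 partners of UTX and its lysine 4 methyltransferase complexes, 11 PRC2 members and 14 other JmjC demethylases. All 34 were considered in both lines. With shJMJD3 in CUTLL1, 0 stood 1.5-fold or more above the control and 1 as far below, where 8.56% and 7.11% of all genes did, and 10 were higher and 2 lower in CEM, where 22.4% and 24.0% were. The median log2 ratio of the 34 was 0.06 in CUTLL1 and 0.23 in CEM, beside -0.0021 and -0.02 over all genes considered. On column totals the CEM counts were 4 higher and 5 lower, where 13.9% and 36.6% of all genes were, so their balance depends on the scaling. Set against the smaller control column, 1 was higher and 0 lower in CUTLL1, where 19.3% and 4.7% of all genes were. With shUTX, 1 was higher and 0 lower in CUTLL1, where 3.49% and 2.25% of all genes were, and 0 were higher and 0 lower in CEM, where 3.32% and 4.06% were. The median was 0.05 in CUTLL1 and -0.01 in CEM, beside -0.0076 and 0.00032 over all genes. With the larger control column in place of the smaller, 6 were higher and 1 lower with shUTX in CUTLL1, where 10.2% and 16% of all genes were.

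Among the other JmjC demethylases, PHF2, a histone H3 lysine 9 demethylase, was the only listed gene past 1.5-fold one way in each line with shJMJD3. It was at 48.4 CPM with shJMJD3 against 81.5 in the larger control column of CUTLL1, a log2 ratio of -0.60 (-0.64 to -0.56), and at 83.2 against 163 in CEM, a log2 ratio of -0.66 (-0.70 to -0.61). It did not pass that fold in CUTLL1 against the smaller control column. The higher members in CEM were led by KDM4B (1.42), KDM3A (1.39) and JHDM1D (1.37), the last encoding KDM7A, whose CUTLL1 ratios were 0.17, 0.41 and 0.49. The list had medians of 0.01 in CUTLL1 and 0.23 in CEM. Against the smaller control column, the gene past 1.5-fold with shUTX in CUTLL1 was KDM5B, a lysine 4 demethylase, at 0.84. KDM5B was at 0.20 in CEM, and JHDM1D lay just inside that limit at 0.58 in both lines.

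The PRC2 genes, whose product writes the mark that JMJD3 and UTX remove, had medians of 0.16 in CUTLL1 and 0.32 in CEM with shJMJD3. Of the 11, 0 and 4 were at least 1.5-fold higher, where 8.56% and 22.4% of all genes were. As far below were 0, against 7.11% and 24.0% of all genes. Column totals shifted all genes in CEM by a median of -0.31, nearly the size of that 0.32. PHF19, an accessory subunit, was at 0.41 and 2.18 and EED at 0.49 and 0.67. Of the catalytic subunits, EZH2 was at 0.16 and 0.32 and EZH1 at -0.08 and -0.51. Of the 11 members, 1 in CUTLL1 and 3 in CEM lay below 0. With shUTX none was past 1.5-fold in either line, and EZH2 was at -0.11 in CUTLL1 and 0.05 in CEM. Of the UTX partners, MLL2 (KMT2D) was at -0.47 in CUTLL1 and -0.93 in CEM with shJMJD3 and at 0.05 and 0.12 with shUTX. Of these values only that with shJMJD3 in CEM was past 1.5-fold. MLL3 (KMT2C) was at -0.10 and -0.21 with shJMJD3 and at -0.04 and -0.01 with shUTX. DPY30 went the other way with shJMJD3, reaching 0.64 in CEM, past 1.5-fold, against 0.30 in CUTLL1. Among all 9 partners with shJMJD3, CEM thus had 1 gene past 1.5-fold higher and 1 lower, and CUTLL1 had 0 of each. Their median log2 ratio was 0.05 for CEM, where 4 lay below 0, and -0.06 for CUTLL1, where 5 did. WDR5, a scaffold of these complexes, was at -0.45 in CUTLL1 and -0.13 in CEM with shUTX. These examples were chosen after their values were seen, apart from PHF2.

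**Figure D5:**
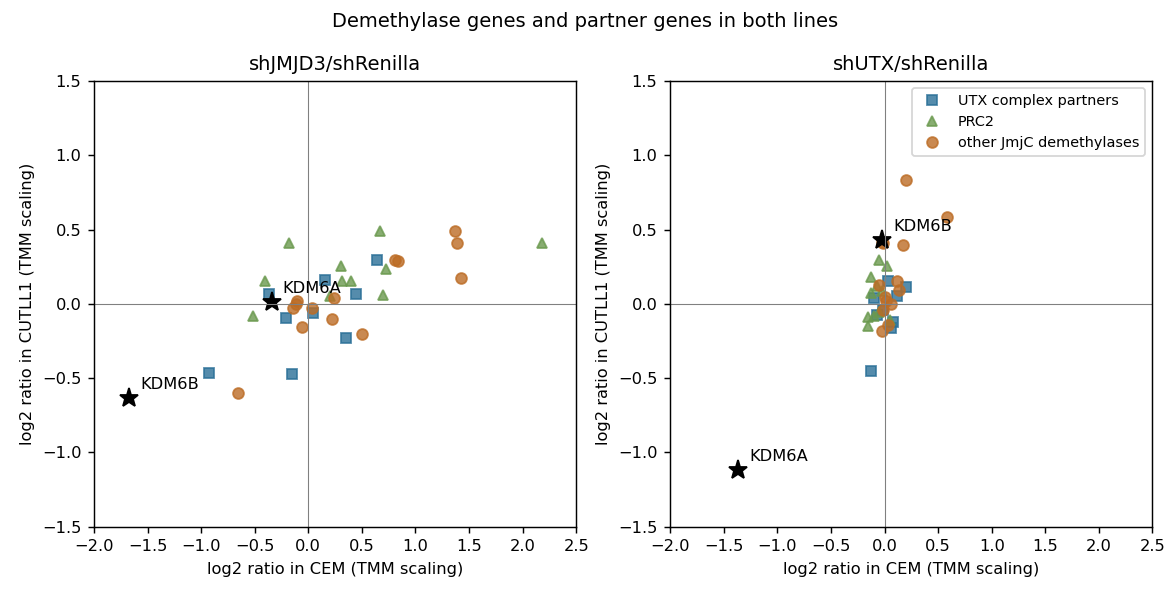
Log2 ratio in CUTLL1 (vertical axis) against CEM (horizontal axis) on the TMM scale for KDM6B and KDM6A (stars) and the 34 listed genes (squares for UTX complex partners, triangles for PRC2, circles for other JmjC demethylases), with shJMJD3 over shRenilla on the left and shUTX over shRenilla on the right. With shUTX, against the smaller control column in CUTLL1, KDM6A is at -1.12 and -1.37. No listed gene is lower than -0.45 in CUTLL1 or -0.16 in CEM there.

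The 5 genes nearest to KDM6B over the 6 columns lay closer to it than the nearest gene did to KDM6A. Likeness was the Euclidean distance of log2(CPM + 1), centred on each gene's mean over 6 columns, among 10483 other protein-coding genes with a mean of at least 5 CPM. It is a description of 6 values that share the line difference and the control columns. Among those nearest to KDM6B were QDPR, the dihydropteridine reductase, at a distance of 0.338, the splicing regulator ESRP1 at 0.661, the apoptosis factor XAF1 at 0.663 and ZNF827 at 0.700. QDPR was at 0.551 CPM with shJMJD3, 2.19 with shUTX and 1.96 with shRenilla in CUTLL1, and at 6.43, 25.5 and 25.9 in CEM. ESRP1 was at 0.126, 0.884 and 0.484 CPM in CUTLL1. At such low levels the added 1 in the measure narrows differences between columns, so these distances are partly set by it. Nearest to KDM6A were SDHC, a subunit of succinate dehydrogenase, at 0.866, the monoamine transporter SLC18A2 at 0.911, COX20 at 0.950, STARD9 at 0.964 and RP11-566K11.2 at 0.968. SDHC was at 6.89 CPM with shJMJD3, 3.61 with shUTX and 6.33 with shRenilla in CUTLL1, but at 15.8, 15.1 and 17.7 in CEM, where the hairpin against UTX did not lower it as it lowered KDM6A. KDM6A and KDM6B lay 2.81 apart, which placed KDM6A at rank 2559 among the genes near KDM6B.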

How the data were processed

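Per the labels, total RNA was purified on columns, enriched either for poly-A tails or by Ribominus, made into strand-marking dUTP libraries and read on an Illumina HiSeq as 50-base single reads. CASAVA, TopHat and hg19 are named in the submitters' processing notes. The counting program, its annotation and use of strand, and the enrichment used for each sample, are not given in these sources.

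Per the file headers, the authors deposited raw counts for each hairpin pair, log2 ratios, z-scores (a score of the DEGseq program, named in the design text), p-values and q-values. Missing counts were read as 0. Gene types, order and exon lengths came from GENCODE release 29, matched on the Ensembl identifier for 48932 of 55075 genes and built on another assembly, so no coordinates are given.

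Per line, TMM-scaled log2 ratios used a prior count of 2. Across lines, edgeR 4.0.16 (filterByExpr, TMM, quasi-likelihood test, line and hairpin as terms, 2 residual degrees of freedom) was fitted to 6 columns, each hairpin against the CUTLL1 control column paired with it by the authors, and shJMJD3 against shUTX and the lines with the larger one. DESeq2 1.42.0 was the alternative, with adjusted p thresholds of 0.05 for both. Intervals cover counting error only. The members, lists and tests were chosen with earlier results of these data known. The naming rule took listed genes past 1.5-fold the same way in both lines, up to 3 per list and hairpin, which gave PHF2 alone, the 2 nearest protein-coding genes on each side, and the 5 nearest in pattern, of which 1 is not reported here. Other listed genes and TNFRSF10A were named after their values were seen. Alternatives were other scalings, control columns, prior counts, filters and DESeq2.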

Additional observations from a re-analysis of the deposited data

How the results depend on the processing

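Over the alternatives run, control column and scaling changed together included, the per-line ratios of KDM6B and KDM6A kept their sign, except KDM6A with shJMJD3 in CUTLL1, between -0.41 and 0.29, and KDM6B with shUTX in CEM, between -0.06 and 0.01. The KDM6B log2 ratio of shJMJD3 to shRenilla was -1.98 in CEM on column totals and -1.998 on the total of protein-coding genes. In CUTLL1 it was -0.79 on column totals, -0.98 on them against the smaller control column and -0.49, short of 1.5-fold, against the remainder of the larger minus the smaller column. The KDM6A log2 ratio of shUTX to shRenilla in CUTLL1 was -0.92 against the larger control column, with -0.89 on column totals and -1.02 on protein-coding totals. Against the remainder it was -0.98, with -0.46 on column totals and -0.86 on protein-coding totals. The remainder, and these changes of control and scaling together, were chosen after seeing the data, and the cause of the differences was not tested. KDM6B with shUTX in CUTLL1 ranged between 0.37 and 0.88. Counts of called genes across lines were 0 in the edgeR tests but 110, 2 and 287 with DESeq2 for shJMJD3 over shRenilla, shUTX over shRenilla and shJMJD3 over shUTX; the last had 6 on column totals and 55 without a filter on low counts, and the cause was not tested. Leaving out the columns of 1 hairpin in turn gave between 1732 (without shRenilla) and 10304 genes called between CUTLL1 and CEM, against 8835. Leaving out 1 line leaves no residual degrees of freedom and gives the values per line above. KDM6B with shJMJD3 had adjusted p of 0.243 to 0.961 over 6 alternatives, and KDM6A with shUTX of 0.00142 to 1. No paired analysis was possible because the deposited columns carry no replicate numbers. Every column holds 1897 counts or more of each gene, apart from the remainder, which holds 1736 of KDM6B.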
